A study of Homo sapiens with 6 samples.

Results

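The genes described here are 37 factors of blood coagulation and fibrinolysis, chosen by gene symbol from the 34036 genes of a HepG2 RNA-seq count table. All 37 were found in the table. They were sorted by role into 25 proteins that hepatocytes make for the plasma, 2 enzymes of the vitamin K cycle, 7 cell-surface and tissue proteins, and 3 genes of the plasminogen activator system.

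In coagulation, plasma zymogens made mostly by the liver are activated in turn until thrombin cuts fibrinogen into fibrin, and plasma inhibitors such as antithrombin and the protein C system hold the reaction back. Several of the zymogens need a vitamin K-dependent modification before secretion. In fibrinolysis, plasminogen from the liver is turned into plasmin by tissue-type or urokinase-type activator, and plasmin breaks fibrin down.

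HepG2 is a human cell line from a hepatocellular carcinoma that keeps many secretory functions of hepatocytes. The study asked how loss of deoxyguanosine kinase (DGUOK), a mitochondrial enzyme that salvages purine nucleosides, changes hepatocyte gene expression. Cells were transfected with Lipofectamine RNAiMAX and 6 pmol siRNA per well of a 24-well plate, scaled for other formats. Poly(A) RNA was sequenced from 3 cultures per group.

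The siControl group received a non-targeting siRNA and the siDGUOK group a siGENOME pool against DGUOK, both harvested 48 h after transfection. Groups were taken from titles and library names, since siControl is written as the treatment of all 6 samples. All cells are of 1 tumor line, and 1 siRNA pool was used, so effects of the pool other than on DGUOK cannot be told apart from those of DGUOK loss. Library totals were 19065684, 18915508 and 10527216 counts in siControl replicates 1 to 3 and 18613138, 15978314 and 21334876 counts in siDGUOK replicates 1 to 3. At least 1 count was found for 21057 genes in siDGUOK replicate 1, against 16205 to 17583 genes in the other 5 libraries. Levels are given as CPM, which are counts scaled to a common library total, on library sizes scaled by TMM. A gene was called when its log2 fold change exceeded 0.5 in either direction and edgeR gave a Benjamini-Hochberg adjusted p under 0.05.

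DGUOK itself checked the labels. Its level was 54.4, 53.1 and 48.2 CPM in siControl replicates 1 to 3 and 9.08, 10.53 and 6.72 CPM in siDGUOK replicates 1 to 3. All siDGUOK libraries lay below all siControl libraries, at 16.9% of the siControl mean. DGUOK fell by 2.57 on the log2 scale (SE 0.19, edgeR with Benjamini-Hochberg adjusted p = 1.64e-08).

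The hepatocyte label was checked with 9 markers, all of which were detected in every library. Their summed level was 58348, 54116 and 52115 CPM in siControl replicates 1 to 3 and 32602, 28459.9 and 27115 CPM in siDGUOK replicates 1 to 3. ALB, which encodes serum albumin, was the most abundant of them in siControl, at 18791, 14273 and 15276 CPM in replicates 1 to 3. In siDGUOK replicates 1 to 3 ALB was at 6328, 5595 and 4279.8 CPM. Per length, the marker AHSG was the highest of the 9 in siDGUOK, at 7492 ± 794 TPM (SD, n = 3). ALB was at 5053 ± 661 TPM (SD, n = 3) there. ALB fell by 1.58 on the log2 scale (SE 0.15, edgeR with Benjamini-Hochberg adjusted p = 4.74e-05). Of the 9 markers, 8 were called lower, against 6.68% of all genes tested, and SERPINA1 was not called (log2 fold change 0.02, SE 0.07, edgeR with Benjamini-Hochberg adjusted p = 0.894). All 9 markers were thus present in both groups, most of them at lower levels in siDGUOK. In bulk RNA, fewer cells that make a transcript and less RNA per cell cannot be told apart.

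Of the 37 clotting and fibrinolysis members, 25 were called, 20 lower and 5 higher in siDGUOK. TFPI2, 1 of the 5, passed the count filter through siDGUOK libraries alone, which leaves 4 higher without it. F13B, 1 of the 20, passed it with all 3 siControl libraries and 1 siDGUOK library, which leaves 19 lower without it. Over all 14476 genes tested, 2041 were called (14.1%), of which 967 were lower (6.68%) and 1074 higher (7.42%). In 21 of the 37 members every siDGUOK library lay below every siControl library, against 17.3% of all genes tested, and in 6, TFPI2 among them, every siDGUOK library lay above, against 18.7%. Of the 12 members not called, 8 were tested and 4 (F9, KLKB1, HRG and THBD) had too few counts to be tested.

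By role the directions differed. Among the 25 hepatocyte-made members, 19 were called lower (18 without F13B) and 0 higher. Both vitamin K cycle enzymes were tested and not called. Of the 7 cell-surface and tissue members, 3 were called higher (2 without TFPI2) and 1 lower, and of the 3 plasminogen activator genes 2 were called higher. The median log2 fold change of the 22 hepatocyte-made members tested, each of which reached the count minimum in at least 1 library of both groups, was -1.27, beside 0.02 over all genes tested. The 25 hepatocyte-made genes summed to 16762, 14466 and 14687 CPM in siControl replicates 1 to 3 and 6957, 5973 and 5469 CPM in siDGUOK replicates 1 to 3, so that siDGUOK libraries held 40.1% of the siControl sum. The 3 plasminogen activator genes summed to 11.2, 5.17 and 8.10 CPM in siControl replicates 1 to 3 and 35.8, 38.3 and 49.0 CPM in siDGUOK replicates 1 to 3. The siDGUOK mean of that small sum was 503% of the siControl mean.

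**Figure D1:**
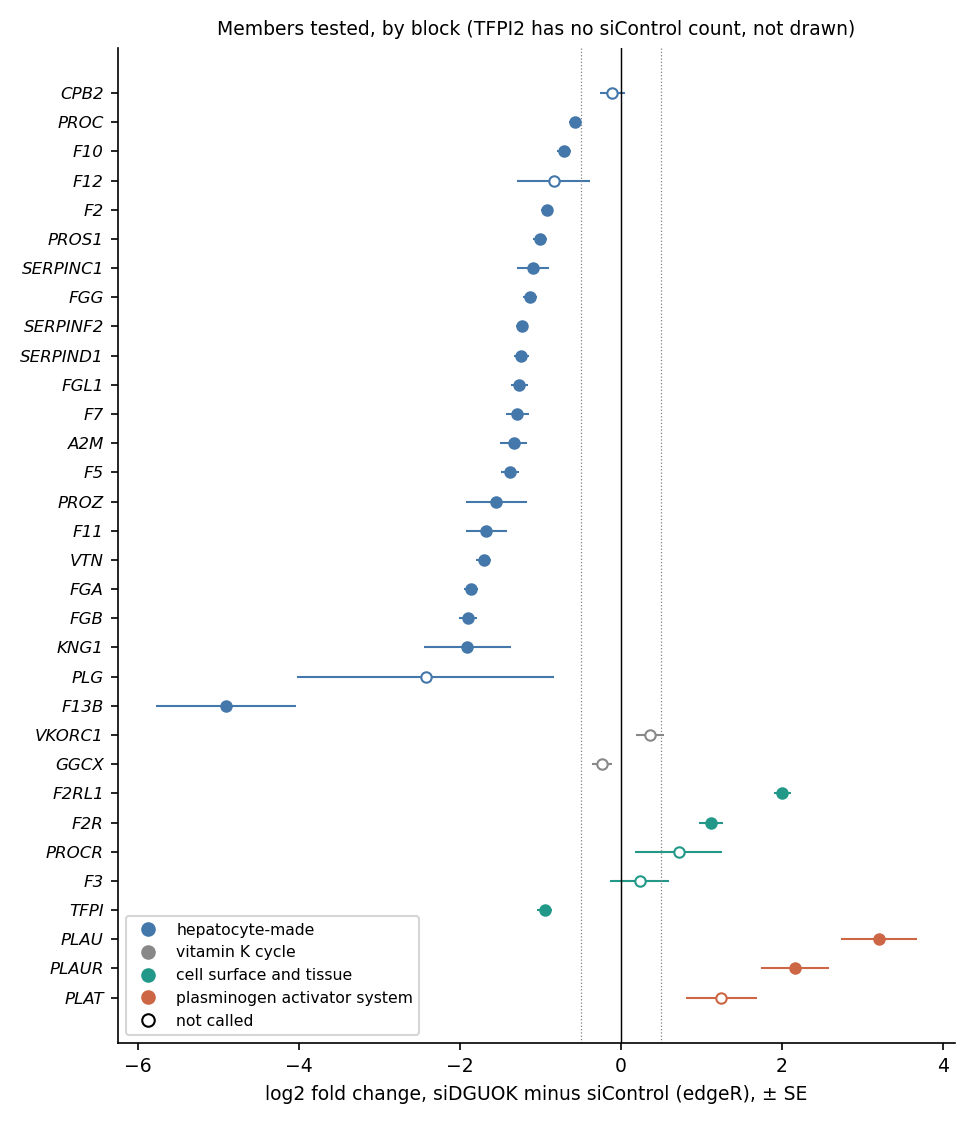
Log2 fold change of siDGUOK against siControl (edgeR, horizontal axis) with its standard error (bars) for 32 of the 33 members tested. Filled points were called, open points were not, and dotted lines mark the threshold of 0.5 in either direction. Called hepatocyte-made members lie left of 0, whereas F2R, F2RL1, PLAU and PLAUR lie right of it.

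**Figure D2:**
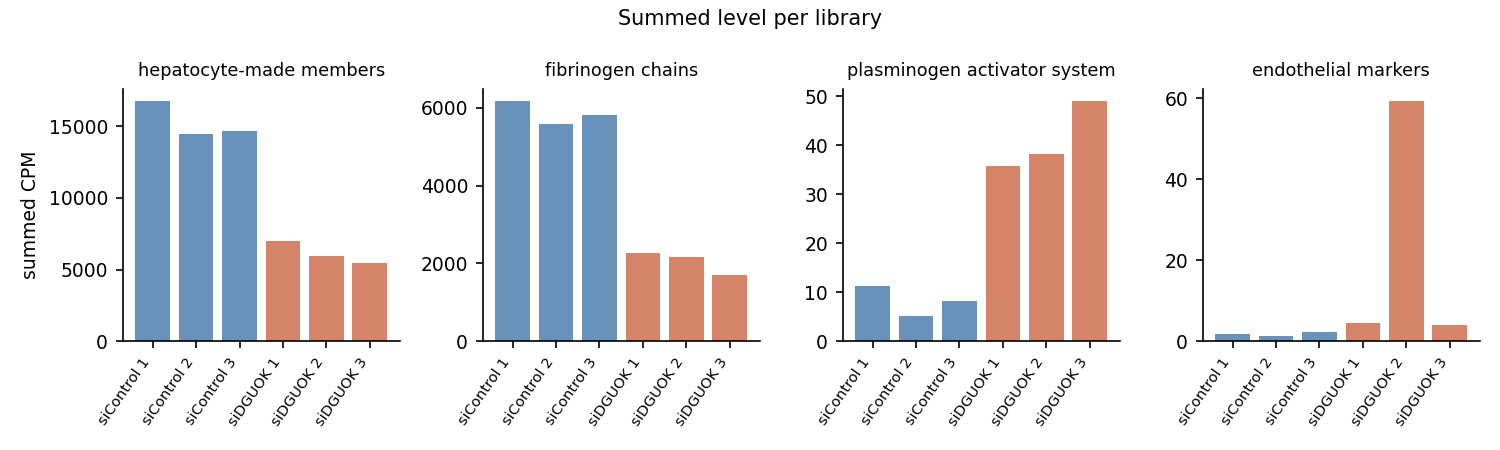
Summed CPM (vertical axis, from 0) in each of the 6 libraries for the hepatocyte-made members, the 3 fibrinogen chains, the plasminogen activator genes and 5 endothelial markers. The first 2 sums are lower and the third higher in all siDGUOK libraries. The endothelial markers stand at 59.3 CPM in siDGUOK replicate 2 and at 1.39 to 4.48 CPM in the other libraries.

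Fibrinogen, the precursor of fibrin, is built from the chains of FGA, FGB and FGG. FGA, the alpha chain, was at 2299, 2022 and 2138 CPM in siControl replicates 1 to 3 and 670.3, 589 and 519 CPM in siDGUOK replicates 1 to 3. FGB, the beta chain, was at 1412, 1232 and 1217 CPM in siControl replicates 1 to 3 and 394, 369.9 and 272 CPM in siDGUOK replicates 1 to 3. FGG, the gamma chain, was at 2468, 2345 and 2454 CPM in siControl replicates 1 to 3 and 1200.2, 1213 and 907 CPM in siDGUOK replicates 1 to 3. The groups did not overlap for any of the 3 chains, and the siDGUOK means were 27.5%, 26.8% and 45.7% of the siControl means. FGA fell by 1.86 on the log2 scale (SE 0.09, edgeR with Benjamini-Hochberg adjusted p = 3.78e-11). FGB fell by 1.90 on the log2 scale (SE 0.11, edgeR with Benjamini-Hochberg adjusted p = 6.96e-10). FGG fell by 1.13 on the log2 scale (SE 0.09, edgeR with Benjamini-Hochberg adjusted p = 5.25e-08). The ratio of FGA to FGG in CPM was 0.932, 0.862 and 0.871 in siControl replicates 1 to 3 and 0.558, 0.485 and 0.573 in siDGUOK replicates 1 to 3, so the ratio was lower in each siDGUOK library than in each siControl library. This ratio was not tested. FGA to FGB ratios overlapped between the groups, from 1.63 to 1.76 in siControl and from 1.59 to 1.91 in siDGUOK.

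The 3 chains lie side by side on chromosome 4 of GRCh38. FGB is at chr4:154563011-154572807 on the plus strand, FGA at chr4:154583126-154590742 and FGG at chr4:154604134-154612967 on the minus strand. Gaps of 10319 bases between FGB and FGA and 13392 bases between FGA and FGG held no other protein-coding gene that lies wholly within them. FGL1, a secreted fibrinogen-related protein of hepatocytes, lies elsewhere. Its level was 738, 601 and 643 CPM in siControl replicates 1 to 3 and 298, 303 and 227 CPM in siDGUOK replicates 1 to 3, again without overlap. FGL1 fell by 1.26 on the log2 scale (SE 0.10, edgeR with Benjamini-Hochberg adjusted p = 6.75e-08).

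The promoters of the fibrinogen chains, like those of the other members, were read from RefSeq (GRCh38.p14) as the 250 bases before the annotated start. Bases run 5′ to 3′ on the gene's strand. An interleukin 6 element (CTGGGAA, either strand) was found 143 bases before the FGB start, counted from the start to the first base of the match. The FGG window holds the same element 161 bases before its RefSeq start, and is not printed since Gencode 44 places it inside the gene. The FGA window holds no match to the motifs searched. FGB, the second of 2 RefSeq entries, lies at chr4:154562761-154563010, plus strand, and capitals mark the match.
FGB: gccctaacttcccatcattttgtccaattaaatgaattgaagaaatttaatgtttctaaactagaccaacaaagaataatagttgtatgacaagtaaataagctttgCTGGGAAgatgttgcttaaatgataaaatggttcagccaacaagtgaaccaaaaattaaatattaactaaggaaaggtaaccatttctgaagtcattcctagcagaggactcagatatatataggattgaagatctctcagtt

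Across members, 30 of 37 had a RefSeq promoter. THBD, F2R, SERPINC1, FGL1, PLAT, A2M and SERPINF2 had none. All 34 entries of the 30 members equaled the genome sequence. For 11 of the 30 (F12, FGG, HRG, KLKB1, PLAU, PLAUR, PROC, PROS1, TFPI, VKORC1 and VTN) at least 1 window lies wholly inside the gene as Gencode 44 places it, and for 7 others (F2, F2RL1, F5, F7, GGCX, KNG1 and PLG) partly, so the counts below rest on starts that differ between the 2 annotations. The interleukin 6 element occurred in 5 of 30 (F10, F9, FGB, FGG and PLG) and in 9.15% of all 35116 promoters of that length. An HNF4 motif (CAAAGTCCA) occurred in PROZ alone among them and in 0.325% of all promoters, and a C/EBP motif (TTGCNNCAA) in 0 of 30 and 1.62%. An AP-1 motif (TGANTCA) occurred in 3 of 30 (F3, PLAUR and TFPI2) and in 6.57%. A match describes letters in this window, and binding was not tested.

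Among the vitamin K-dependent zymogens, F2 encodes prothrombin. Its level was 1013, 1023 and 990.5 CPM in siControl replicates 1 to 3 and 584, 505 and 508 CPM in siDGUOK replicates 1 to 3. F7, the zymogen that pairs with tissue factor, was at 61.1, 53.7 and 65.5 CPM in siControl replicates 1 to 3 and 24.4, 24.6 and 24.8 CPM in siDGUOK replicates 1 to 3. F10, which as active factor X cuts prothrombin, was at 253, 284 and 284 CPM in siControl replicates 1 to 3 and 172, 154 and 176 CPM in siDGUOK replicates 1 to 3. All 3 were lower in every siDGUOK library than in any siControl library. F2 fell by 0.92 on the log2 scale (SE 0.07, edgeR with Benjamini-Hochberg adjusted p = 5.51e-08). F7 fell by 1.29 on the log2 scale (SE 0.14, edgeR with Benjamini-Hochberg adjusted p = 2.43e-06). F10 fell by 0.71 on the log2 scale (SE 0.09, edgeR with Benjamini-Hochberg adjusted p = 7.79e-06). F9, the zymogen absent in hemophilia B, had 0 counts in all 6 libraries. A count of 0 allows up to 0.286 CPM in the library with the fewest counts, taking a floor of 3 counts per library.

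F7, F10 and PROZ lie in a row on chromosome 13, with 2114 bases from F7 to F10 and 9119 bases from F10 to PROZ. PROZ encodes protein Z, a cofactor for inhibition of active factor X. Its level was 11.3, 13.2 and 6.29 CPM in siControl replicates 1 to 3 and 3.78, 4.19 and 2.62 CPM in siDGUOK replicates 1 to 3. The groups did not overlap, and PROZ fell by 1.55 on the log2 scale (SE 0.37, edgeR with Benjamini-Hochberg adjusted p = 0.00599). These 3 neighbors were all called lower, with log2 fold changes of -1.29, -0.71 and -1.55.

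In the contact and intrinsic pathway, F11 encodes the zymogen of factor XI. Its level was 33.5, 23.7 and 37.5 CPM in siControl replicates 1 to 3 and 7.51, 14.1 and 8.14 CPM in siDGUOK replicates 1 to 3. All siDGUOK libraries were lower, and F11 fell by 1.67 on the log2 scale (SE 0.25, edgeR with Benjamini-Hochberg adjusted p = 8.72e-05). A stretch of 13.8% of its exon bases is shared with F11-AS1 on the other strand, and the default counting ignores strand and leaves out reads over both genes, so F11 counts are uncertain by that stretch. KNG1, which encodes kininogen, the cofactor of the contact system, was at 8.71, 10.6 and 7.63 CPM in siControl replicates 1 to 3 and 1.89, 0.492 and 4.69 CPM in siDGUOK replicates 1 to 3. Its siDGUOK libraries were spread widely, with replicate 2 lowest, although none reached a siControl library. KNG1 fell by 1.91 on the log2 scale (SE 0.54, edgeR with Benjamini-Hochberg adjusted p = 0.017). Without siControl replicate 1, 2 or 3 or siDGUOK replicate 1 in turn, the adjusted p of KNG1 was 0.0525, 0.0702, 0.0551 and 0.0848 (edgeR, Benjamini-Hochberg) at log2 fold changes of -1.93, -1.78, -2.01 and -1.79, and without siDGUOK replicate 3 its log2 fold change was -2.90.

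F12, the zymogen that starts the contact pathway, was not called (log2 fold change -0.84, SE 0.45, edgeR with Benjamini-Hochberg adjusted p = 0.225), at 5.71 ± 2.13 CPM (SD, n = 3) in siControl and 3.20 ± 0.489 CPM (SD, n = 3) in siDGUOK. KLKB1, which encodes prekallikrein and neighbors F11 at a gap of 7718 bases, had 0 to 5 counts per library and was not tested. Most of its exon bases, 78.0%, are shared with a second annotated gene of the same strand. HRG, which encodes the histidine-rich glycoprotein and lies 39114 bases from KNG1, had 6 counts in siControl replicate 2 and 0 in the other libraries.

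F5 encodes factor V, the cofactor with which active factor X cuts prothrombin. Its level was 257, 193 and 194 CPM in siControl replicates 1 to 3 and 86.0, 75.4 and 86.0 CPM in siDGUOK replicates 1 to 3. The groups did not overlap, and F5 fell by 1.38 on the log2 scale (SE 0.11, edgeR with Benjamini-Hochberg adjusted p = 5.9e-08). F13B encodes the carrier subunit of factor XIII, which crosslinks fibrin. It had 202, 146 and 82 counts in siControl replicates 1 to 3 and 16, 0 and 0 counts in siDGUOK replicates 1 to 3. In CPM these are 10.8, 7.78 and 7.82 CPM in siControl replicates 1 to 3 and 0.865, 0 and 0 CPM in siDGUOK replicates 1 to 3. F13B was thus close to or at 0 in siDGUOK, with a fitted log2 fold change of -4.91 (SE 0.86). No edgeR p is given, since F13B entered the test through its siControl libraries, with only 1 siDGUOK library at the count minimum. The fitted change depended on the few counts left: without siDGUOK replicate 1, the only siDGUOK library with a count, it was -10.25, a fit against a group at 0. DESeq2 gave -4.94, or -0.22 when shrunken, with a Benjamini-Hochberg adjusted p of 0.0639, so the call of F13B was not made by DESeq2.

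The plasma anticoagulants were all called lower, 6 of 6, against 6.68% of all genes tested. SERPINC1, which encodes antithrombin, the main inhibitor of thrombin, was at 33.4, 27.5 and 34.7 CPM in siControl replicates 1 to 3 and 15.9, 17.2 and 11.9 CPM in siDGUOK replicates 1 to 3. SERPIND1, which encodes heparin cofactor II, another thrombin inhibitor, was at 712, 678 and 663 CPM in siControl replicates 1 to 3 and 334, 284 and 253 CPM in siDGUOK replicates 1 to 3. A2M, which encodes the broad protease inhibitor alpha-2-macroglobulin, was at 5661, 4119 and 4189.8 CPM in siControl replicates 1 to 3 and 2290.4, 1599 and 1668 CPM in siDGUOK replicates 1 to 3. No siDGUOK library of these 3 inhibitors reached a siControl library. SERPINC1 fell by 1.09 on the log2 scale (SE 0.20, edgeR with Benjamini-Hochberg adjusted p = 0.00055). SERPIND1 fell by 1.24 on the log2 scale (SE 0.09, edgeR with Benjamini-Hochberg adjusted p = 1.42e-08). A2M fell by 1.33 on the log2 scale (SE 0.17, edgeR with Benjamini-Hochberg adjusted p = 0.000647).

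Protein C, encoded by PROC, cuts active factors V and VIII. Its level was 280.0, 281 and 267 CPM in siControl replicates 1 to 3 and 186, 181 and 191 CPM in siDGUOK replicates 1 to 3. PROS1, which encodes its cofactor protein S, was at 206, 203 and 203 CPM in siControl replicates 1 to 3 and 99.0, 104 and 102 CPM in siDGUOK replicates 1 to 3. Both were lower in all siDGUOK libraries. PROC fell by 0.57 on the log2 scale (SE 0.08, edgeR with Benjamini-Hochberg adjusted p = 2.69e-05). PROS1 fell by 1.01 on the log2 scale (SE 0.08, edgeR with Benjamini-Hochberg adjusted p = 7.63e-08).

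Among plasma proteins of fibrinolysis, SERPINF2 encodes alpha-2-antiplasmin, the main inhibitor of plasmin. Its level was 846, 900.3 and 864 CPM in siControl replicates 1 to 3 and 392, 378 and 341 CPM in siDGUOK replicates 1 to 3. VTN encodes vitronectin, an adhesive protein of plasma and matrix. Its level was 401, 376 and 351 CPM in siControl replicates 1 to 3 and 129, 105 and 113 CPM in siDGUOK replicates 1 to 3. Both genes were lower in every siDGUOK library. SERPINF2 fell by 1.23 on the log2 scale (SE 0.07, edgeR with Benjamini-Hochberg adjusted p = 1.31e-09). VTN fell by 1.70 on the log2 scale (SE 0.09, edgeR with Benjamini-Hochberg adjusted p = 2.79e-10). CPB2, which encodes a carboxypeptidase that slows fibrinolysis, was at 48.1, 67.0 and 63.4 CPM in siControl replicates 1 to 3 and 66.3, 48.8 and 50.7 CPM in siDGUOK replicates 1 to 3. Its groups overlapped and it was not called (log2 fold change -0.10, SE 0.15, edgeR with Benjamini-Hochberg adjusted p = 0.717). PLG, which encodes plasminogen, had 6, 38 and 13 counts in siControl replicates 1 to 3 and 1, 10 and 0 counts in siDGUOK replicates 1 to 3, too few for a clear difference (log2 fold change -2.42, SE 1.595, edgeR with Benjamini-Hochberg adjusted p = 0.343).

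**Figure D3:**
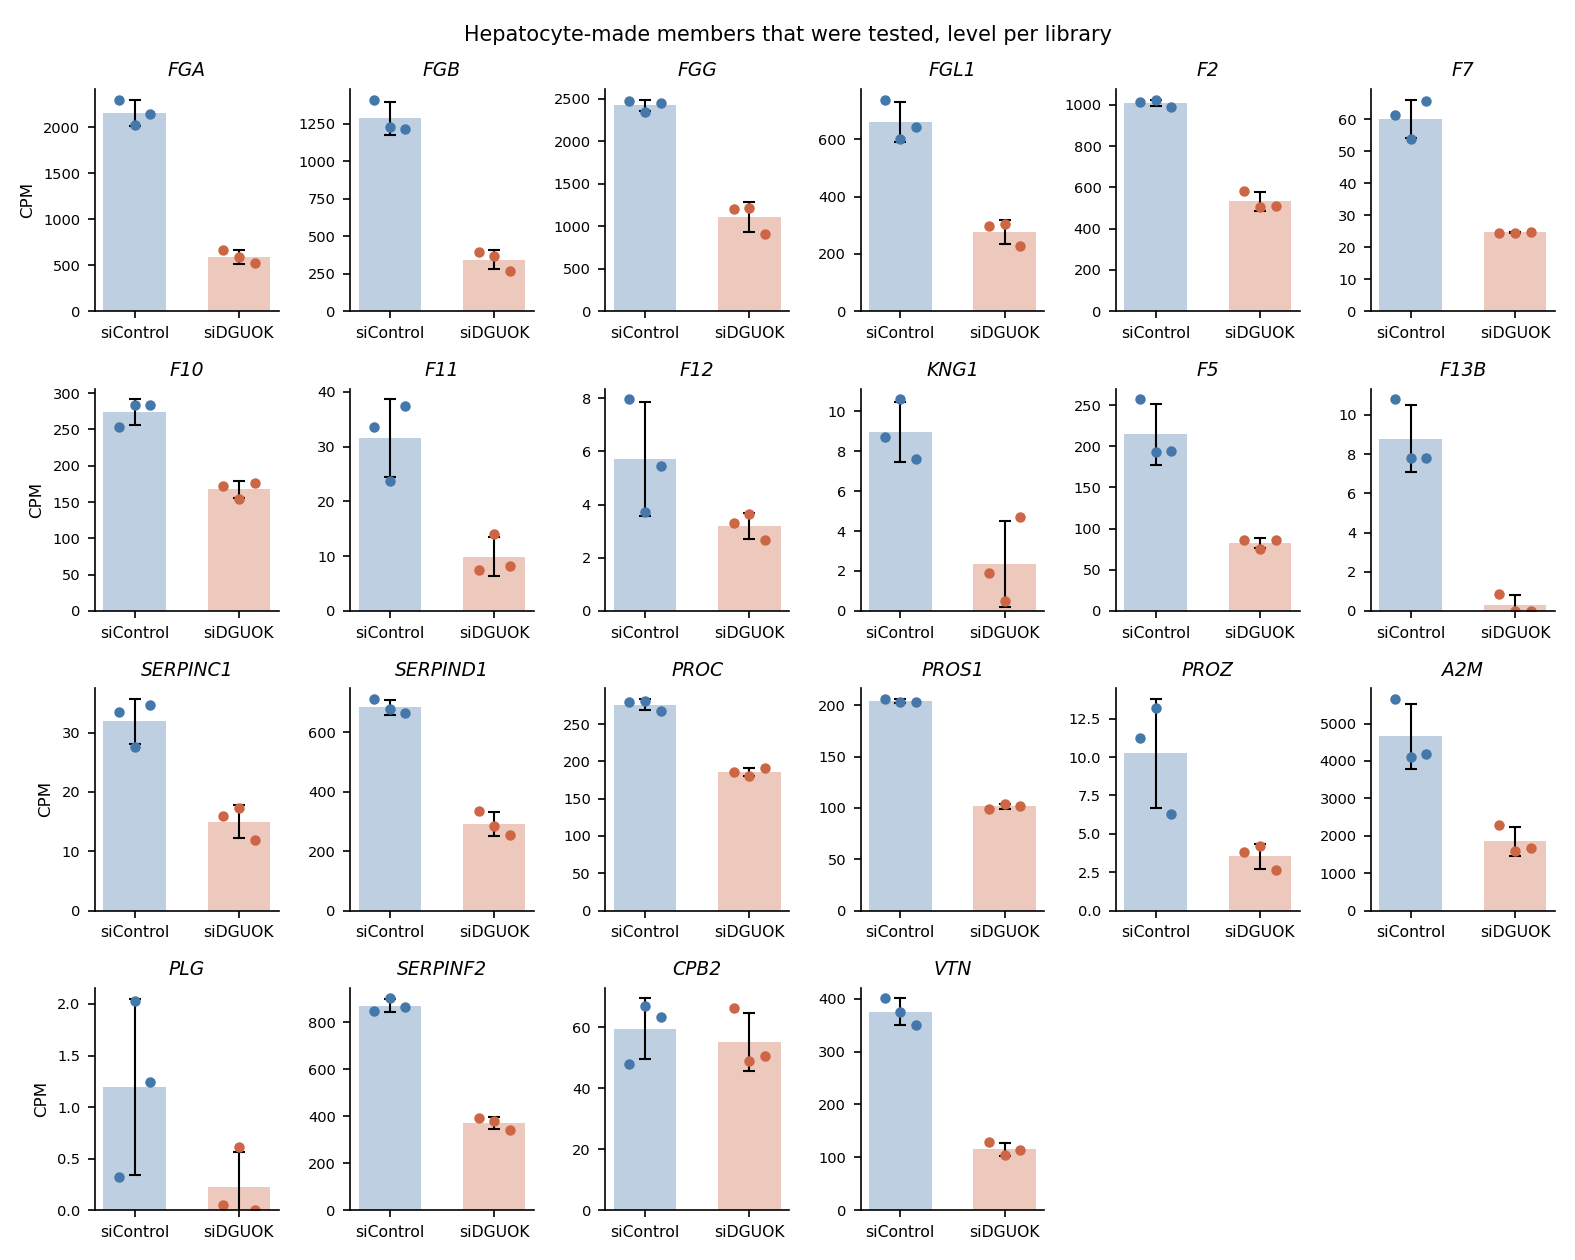
Level in CPM (vertical axis, from 0, with its own scale per gene) of the 22 hepatocyte-made members that were tested. Points are libraries, bars the group means and error bars the SD (n = 3 per group, cut at 0). In all of them but PLG and CPB2 every siDGUOK point lies below every siControl point.

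Per length, A2M, FGG and FGA had the highest levels of the 37 members in siControl, at 2682 ± 478 TPM (SD, n = 3), 2451 ± 83.1 TPM (SD, n = 3) and 2002 ± 125 TPM (SD, n = 3). A2M and FGG did not differ beyond their spread. In siDGUOK the highest was FGG, at 995 ± 177 TPM (SD, n = 3), then A2M at 936 ± 32.0 TPM (SD, n = 3). These 2 also did not differ beyond their spread. Among the plasminogen activator genes, PLAU reached 22.5 ± 8.32 TPM (SD, n = 3) in siDGUOK.

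The vitamin K cycle supports the carboxylation of the zymogens and of proteins C, S and Z. GGCX, the carboxylase, was at 73.7, 68.8 and 60.0 CPM in siControl replicates 1 to 3 and 56.7, 52.9 and 62.6 CPM in siDGUOK replicates 1 to 3. Its groups overlapped (log2 fold change -0.23, SE 0.12, edgeR with Benjamini-Hochberg adjusted p = 0.218). VKORC1, the reductase that recycles vitamin K and the target of warfarin, was at 34.8, 38.9 and 33.5 CPM in siControl replicates 1 to 3 and 43.4, 60.2 and 34.5 CPM in siDGUOK replicates 1 to 3. It was not called (log2 fold change 0.36, SE 0.18, edgeR with Benjamini-Hochberg adjusted p = 0.18), but was called without siDGUOK replicate 3, at a log2 fold change of 0.52 (edgeR with Benjamini-Hochberg adjusted p = 0.0413). Without siDGUOK replicate 2 it was 0.13 (adjusted p = 0.739, edgeR with Benjamini-Hochberg). VKORC1 shares 58.0% of its exon bases with an annotated transcript of the other strand and 34.7% with one of the same strand, so its counts are uncertain. Smaller exon overlaps with annotated genes included 17.3% for VTN on the same strand and 14.1% for KNG1, 12.8% for PROCR and 10.4% for F2RL1 on the other strand. Overlaps of members not given in the text were at most 9.0%, that of HRG.

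On the cell surface, F3 encodes tissue factor, which starts coagulation with factor VII. Its level was 4.27, 6.71 and 4.96 CPM in siControl replicates 1 to 3 and 6.00, 6.83 and 5.94 CPM in siDGUOK replicates 1 to 3, with overlapping groups and no call (log2 fold change 0.23, SE 0.36, edgeR with Benjamini-Hochberg adjusted p = 0.741). TFPI encodes the inhibitor of the tissue factor pathway. Its level was 983, 929.7 and 1021 CPM in siControl replicates 1 to 3 and 524, 568 and 429 CPM in siDGUOK replicates 1 to 3. TFPI was lower in all siDGUOK libraries and fell by 0.95 on the log2 scale (SE 0.09, edgeR with Benjamini-Hochberg adjusted p = 3.98e-07). TFPI2, a related inhibitor of plasmin and trypsin that is secreted into the extracellular matrix, had 0, 0 and 0 counts in siControl replicates 1 to 3 and 117, 72 and 151 counts in siDGUOK replicates 1 to 3. No siControl library held a TFPI2 count and all siDGUOK libraries did, at 6.32, 4.43 and 6.95 CPM. The lowest of these is 15.5 times the level that 3 counts give in the siControl library with the fewest counts. No p is given for TFPI2, since it entered the test through its siDGUOK counts alone.

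The TFPI2 promoter holds an AP-1 motif, in capitals, 87 bases before its start, and is shown since TFPI2 was detected in siDGUOK alone. The 250 bases lie at chr7:93890754-93891003, minus strand, from RefSeq (GRCh38.p14).
TFPI2: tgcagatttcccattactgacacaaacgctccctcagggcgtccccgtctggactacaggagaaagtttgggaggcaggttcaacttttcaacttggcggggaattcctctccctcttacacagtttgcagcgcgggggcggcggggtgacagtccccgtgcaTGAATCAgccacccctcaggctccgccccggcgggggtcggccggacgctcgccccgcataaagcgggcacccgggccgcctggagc

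PROCR, which encodes the endothelial protein C receptor, was at 4.17, 2.66 and 3.81 CPM in siControl replicates 1 to 3 and 1.40, 8.86 and 7.22 CPM in siDGUOK replicates 1 to 3. Its siDGUOK libraries lay on both sides of the siControl range (log2 fold change 0.72, SE 0.54, edgeR with Benjamini-Hochberg adjusted p = 0.42). THBD, which encodes thrombomodulin, had 0, 0 and 0 counts in siControl replicates 1 to 3 and 9, 15 and 0 counts in siDGUOK replicates 1 to 3. It was not tested. F2R and F2RL1, receptors that thrombin and trypsin-like proteases respectively activate by cutting, lie 83163 bases apart on chromosome 5. F2R was at 28.7, 27.3 and 38.5 CPM in siControl replicates 1 to 3 and 66.4, 72.3 and 65.2 CPM in siDGUOK replicates 1 to 3. F2RL1 was at 88.0, 76.9 and 109 CPM in siControl replicates 1 to 3 and 345, 383 and 371 CPM in siDGUOK replicates 1 to 3. Both receptors were higher in every siDGUOK library than in any siControl library. F2R rose by 1.12 on the log2 scale (SE 0.15, edgeR with Benjamini-Hochberg adjusted p = 2.08e-05). F2RL1 rose by 2.01 on the log2 scale (SE 0.11, edgeR with Benjamini-Hochberg adjusted p = 2.87e-10), with a siDGUOK mean 4.01 times the siControl mean.

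In the plasminogen activator system, PLAU encodes urokinase-type plasminogen activator. Its level was 4.38, 0.586 and 1.33 CPM in siControl replicates 1 to 3 and 15.9, 18.7 and 24.9 CPM in siDGUOK replicates 1 to 3. PLAUR encodes the receptor that holds it at the cell surface. Its level was 4.38, 1.12 and 4.29 CPM in siControl replicates 1 to 3 and 11.1, 12.4 and 19.9 CPM in siDGUOK replicates 1 to 3. PLAT encodes tissue-type plasminogen activator. Its level was 2.46, 3.46 and 2.48 CPM in siControl replicates 1 to 3 and 8.81, 7.14 and 4.14 CPM in siDGUOK replicates 1 to 3. In each of these 3 genes every siDGUOK library lay above every siControl library, while the levels stayed under 25 CPM. PLAU rose by 3.20 on the log2 scale (SE 0.47, edgeR with Benjamini-Hochberg adjusted p = 6.93e-05). PLAUR rose by 2.17 on the log2 scale (SE 0.42, edgeR with Benjamini-Hochberg adjusted p = 0.00104). PLAT missed the threshold (log2 fold change 1.25, SE 0.44, edgeR with Benjamini-Hochberg adjusted p = 0.0525) and was called without siDGUOK replicate 3, at a log2 fold change of 1.50 (edgeR with Benjamini-Hochberg adjusted p = 0.0234), whereas without siDGUOK replicate 1 it was 0.99 (adjusted p = 0.269). The siControl level of PLAU was highest in replicate 1, without which its log2 fold change was 4.46, the highest with a library left out. The lowest was 2.72, without siControl replicate 2, and the shrunken DESeq2 value was 1.72. An annotated gene of the other strand, C10orf55, shares 31.0% of the exon bases of PLAU, where reads over both genes are left out by the same counting, so PLAU counts are uncertain too.

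**Figure D4:**
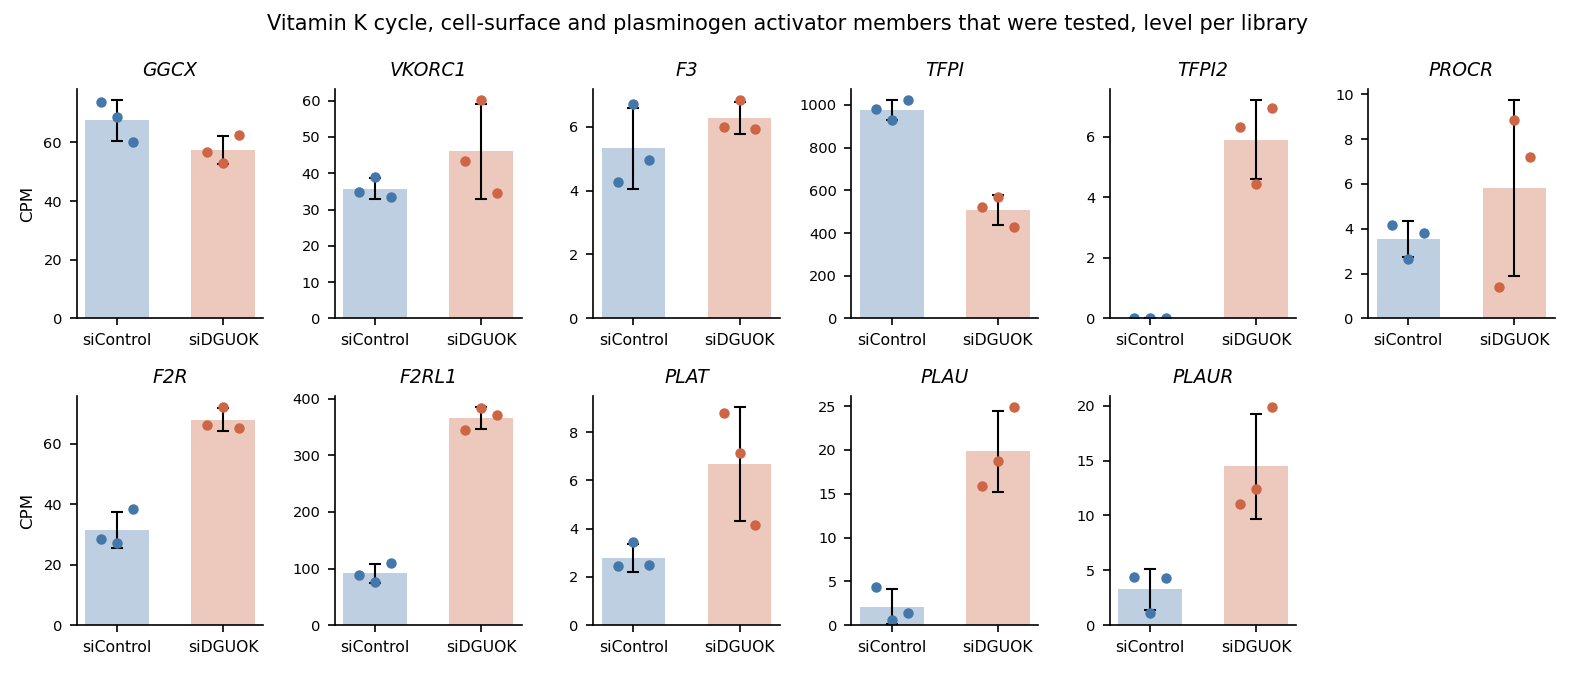
Level in CPM (vertical axis, from 0, with its own scale per gene) of the 11 vitamin K cycle, cell-surface and plasminogen activator members that were tested. Points are libraries, bars the group means and error bars the SD (n = 3 per group). F2R, F2RL1, TFPI2, PLAU, PLAUR and PLAT lie higher in all siDGUOK libraries, and TFPI lower.

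Other genes of the pathway were taken from a list of 20, of which 19 were in the table and 14 were tested. Of the 20, 3 were called higher and 3 lower, against 7.42% and 6.68% of all genes tested. SERPINE2, which encodes protease nexin, an inhibitor of thrombin and urokinase, was at 96.8, 112 and 90.3 CPM in siControl replicates 1 to 3 and 303, 270.5 and 294 CPM in siDGUOK replicates 1 to 3, and rose by 1.53 on the log2 scale (SE 0.09, edgeR with Benjamini-Hochberg adjusted p = 1.63e-09). ANXA2 and S100A10, whose products form a plasminogen-binding complex at the cell surface, had log2 fold changes of 0.60 (edgeR with Benjamini-Hochberg adjusted p = 5.4e-05) and 0.75 (adjusted p = 0.000106). SERPING1, which encodes the inhibitor of C1 and of the contact proteases, was at 35.5, 31.4 and 29.6 CPM in siControl replicates 1 to 3 and 14.6, 9.05 and 12.8 CPM in siDGUOK replicates 1 to 3, and fell by 1.40 on the log2 scale (SE 0.21, edgeR with Benjamini-Hochberg adjusted p = 7.06e-05). LRP1, an endocytic receptor for protease-inhibitor complexes, and LMAN1, a cargo receptor for factors V and VIII, had log2 fold changes of -0.56 (edgeR with Benjamini-Hochberg adjusted p = 0.000253) and -0.54 (adjusted p = 0.000275). LRP1 fell under the fold threshold without siControl replicate 1 (-0.48) or siDGUOK replicate 2 (-0.49), and LMAN1 without siControl replicate 2 (-0.49) or siDGUOK replicate 2 (-0.47). ENO1, a glycolytic enzyme that also binds plasminogen and the most abundant gene of the list, was at 4159 ± 163 CPM (SD, n = 3) in siControl and 3612 ± 282 CPM (SD, n = 3) in siDGUOK and was not called. SERPINA10 was not called (log2 fold change -0.41, SE 0.18, edgeR with Benjamini-Hochberg adjusted p = 0.138) except without siDGUOK replicate 3 (-0.59), and stood at -0.28 without siDGUOK replicate 1.

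Of 8 transcription factors known to act at liver promoters, 5 were called lower and 0 higher, against 6.68% and 7.42% of all genes tested. CEBPB, the most abundant of them per length, was at 359 ± 18.3 TPM (SD, n = 3) in siControl and 378 ± 17.5 TPM (SD, n = 3) in siDGUOK and was not called (log2 fold change 0.26, SE 0.10, edgeR with Benjamini-Hochberg adjusted p = 0.0954). HNF4A, a nuclear receptor, was at 260.3, 231 and 246 CPM in siControl replicates 1 to 3 and 177, 179 and 162 CPM in siDGUOK replicates 1 to 3, and fell by 0.51 on the log2 scale (SE 0.08, edgeR with Benjamini-Hochberg adjusted p = 0.000207). HNF4A lay near the fold threshold, and was under it without siControl replicate 1 (-0.47) or siDGUOK replicate 3 (-0.47). CEBPA, a C/EBP factor, was at 116, 118 and 129 CPM in siControl replicates 1 to 3 and 62.5, 49.0 and 55.8 CPM in siDGUOK replicates 1 to 3, and fell by 1.12 on the log2 scale (SE 0.11, edgeR with Benjamini-Hochberg adjusted p = 9.23e-07). The other 3 were FOXA1 (-0.91), ONECUT1 (-1.94) and NR1H4 (-1.69), each as a log2 fold change. Whether these factors bear on the clotting genes was not tested.

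The interleukin 6 pathway, which raises fibrinogen in the acute phase response, was given by 7 genes. IL6 had 0 counts in every library. IL6R, which encodes the receptor, was at 22.4, 24.7 and 24.3 CPM in siControl replicates 1 to 3 and 45.6, 47.6 and 49.7 CPM in siDGUOK replicates 1 to 3, and rose by 1.00 on the log2 scale (SE 0.15, edgeR with Benjamini-Hochberg adjusted p = 6.93e-05). IL6ST, which encodes the shared signaling chain and is the most abundant of the list, was at 412, 285 and 346 CPM in siControl replicates 1 to 3 and 236, 223 and 208 CPM in siDGUOK replicates 1 to 3, and fell by 0.65 on the log2 scale (SE 0.11, edgeR with Benjamini-Hochberg adjusted p = 0.000221). STAT3, JAK1, JAK2 and SOCS3 were not called, at log2 fold changes of -0.05, 0.28, 0.35 and -0.71.

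Markers of other cells that make or carry clotting factors were read beside these results. Of 5 endothelial markers, all had a count in at least 1 library. By edgeR 3 were tested and 0 called, with 2 at an unadjusted p under 0.05. DESeq2, which was fitted to every gene with a count, called 1 of the 5. These markers summed to 1.66, 1.39 and 2.29 CPM in siControl replicates 1 to 3 and 4.48, 59.3 and 4.05 CPM in siDGUOK replicates 1 to 3. VWF was the most abundant of them in replicate 2 of each group only, and PECAM1 or CDH5 in the other libraries. VWF had 8, 26 and 0 counts in siControl replicates 1 to 3 and 26, 510 and 0 counts in siDGUOK replicates 1 to 3. Replicate 2 of siDGUOK thus stood apart. Without siDGUOK replicate 2, 25 of the 37 members were called (23 without TFPI2 and F13B), against 12% of the 15121 genes tested in that setting, with 19 of the 25 hepatocyte-made members lower and 2 of the 3 plasminogen activator genes higher. Of 6 fibroblast and stellate markers, 4 were tested by edgeR, with 3 at an unadjusted p under 0.05. It called 1 higher and 1 lower (7.42% and 6.68% of all genes tested were). DESeq2, again without the count filter, called 4 of the 6. These markers summed to 44.2, 41.6 and 36.5 CPM in siControl replicates 1 to 3 and 70.0, 76.2 and 47.5 CPM in siDGUOK replicates 1 to 3. ACTA2 was the most abundant, at 32.0, 26.6 and 26.2 CPM in siControl replicates 1 to 3 and 27.7, 21.4 and 25.9 CPM in siDGUOK replicates 1 to 3. COL1A1 was at 0.481, 1.97 and 1.05 CPM in siControl replicates 1 to 3 and 20.2, 20.7 and 17.4 CPM in siDGUOK replicates 1 to 3, and rose by 4.04 on the log2 scale (SE 0.39, edgeR with Benjamini-Hochberg adjusted p = 5.94e-07). COL1A2 had 14, 0 and 0 counts in siControl replicates 1 to 3 and 124, 169 and 0 counts in siDGUOK replicates 1 to 3 and was not called (log2 fold change 4.36, SE 1.84, edgeR with Benjamini-Hochberg adjusted p = 0.154). DCN had 0, 0 and 0 counts in siControl replicates 1 to 3 and 21, 26 and 0 counts in siDGUOK replicates 1 to 3, and COL3A1 had 0, 1 and 0 counts in siControl replicates 1 to 3 and 148, 254 and 9 counts in siDGUOK replicates 1 to 3. PDGFRB fell by 1.02 on the log2 scale (SE 0.32, edgeR with Benjamini-Hochberg adjusted p = 0.0332).

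Of 5 myeloid markers, 3 were tested and 0 were called by edgeR, with 0 at an unadjusted p under 0.05. DESeq2, without the count filter, called 1 of the 5. The sum of these markers was 1612, 1702 and 1705 CPM in siControl replicates 1 to 3 and 1899, 1754 and 1767 CPM in siDGUOK replicates 1 to 3. LYZ made up nearly all of it, at 1609.6, 1696 and 1700.0 CPM in siControl replicates 1 to 3 and 1896, 1746 and 1764 CPM in siDGUOK replicates 1 to 3. PTPRC had 9, 55 and 2 counts in siControl replicates 1 to 3 and 37, 129 and 58 counts in siDGUOK replicates 1 to 3 (log2 fold change 1.76, SE 0.84, edgeR with Benjamini-Hochberg adjusted p = 0.166), and CD14 had 18, 35 and 29 counts in siControl replicates 1 to 3 and 16, 0 and 24 counts in siDGUOK replicates 1 to 3 (log2 fold change -1.48, SE 1.24, edgeR with Benjamini-Hochberg adjusted p = 0.482). CSF1R had 16, 0 and 11 counts in siControl replicates 1 to 3 and 0, 0 and 0 counts in siDGUOK replicates 1 to 3, and CD163 had 9, 23 and 8 counts in siControl replicates 1 to 3 and 0, 0 and 0 counts in siDGUOK replicates 1 to 3. These last 2 were not tested. Of 6 megakaryocyte and platelet markers, PF4, PPBP, GP1BB and GP9 were not in the table, and ITGA2B and TUBB1 were tested and not called. The sum of the latter 2 was 63.8, 77.1 and 70.7 CPM in siControl replicates 1 to 3 and 96.6, 72.0 and 73.7 CPM in siDGUOK replicates 1 to 3, most of it TUBB1. The part of other cell types in the results above was not tested.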

How the data were processed

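RNA from 3 siControl and 3 siDGUOK HepG2 cultures was analysed from the deposited table of raw counts. The authors removed reads of tRNA, rRNA, adapters and spike-ins, aligned paired-end reads to GRCh38 with Gencode 27 (STAR 2.6.1), removed low-complexity alignments (PRINSEQ Lite 0.20.3, DUST above 4) and counted per gene (featureCounts 1.6.5, minimum Phred quality 10, otherwise defaults). Those defaults ignore strand and leave out reads over several genes or places. The members and lists were chosen with earlier results of these data known.

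In R 4.3.3, counts were filtered by filterByExpr of edgeR 4.0.16 (minimum count 10; 14476 genes), scaled by TMM and compared between groups by a robust quasi-likelihood F test without covariates, with Benjamini-Hochberg adjustment over all genes tested. The plan did not state whether library sizes are summed again after the filter. They were summed again in the first fit, which called 2032 genes. This and 3 other choices (TMM before or after the filter, robust fit or not, robust dispersion or not) were then compared after the results were seen, and full library totals were taken for the fit reported here to keep the processing of an earlier analysis of these data, whose count of called genes that setting gave. Over the 16 combinations, 2032 to 2073 genes and 25 members were called. The standard error is the log2 fold change over the square root of F. TPM used exon lengths of Gencode 44, and exon overlaps between genes were taken from the same annotation. Whether the overlapping genes are in Gencode 27, on which the reads were counted, was not checked. DESeq2 1.42.0, RLE and upper-quartile scaling, other filters and thresholds, a replicate block and each library left out were alternatives. Scripts were tested on simulated counts. Library totals ran from 10527216 to 21334876 counts. The floor of 3 counts per library covers counting error only. Protein sequences, 1 motif and some genes of the lists were not used here. The markers of the 5 cell types, the other pathway genes, the transcription factors and the interleukin 6 genes were counted, with no test of a list.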

Additional observations from a re-analysis of the deposited data

Results flagged for a closer look

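No result met a rule for a closer look. Groups of 3 libraries are too small for the test of a single outlying library, the series has 1 contrast in 1 cell line, and all columns of the count table were used.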

How the results depend on the processing

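The counts of genes called, members called, hepatocyte-made members lower, plasminogen activator genes higher and other pathway genes called were repeated under 15 other settings and under 15 settings added after seeing the data. With an absolute log2 fold change above 1, 819 genes were called and 2 of the other pathway genes. With a mean CPM above 10, 1 plasminogen activator gene was called higher. Otherwise these 5 counts differed by at most 1.5 times from those reported. The counts of the other lists and of groups without overlap were not repeated. The added settings were the other 15 combinations of library size, TMM, robust fitting and robust dispersion, the last of which changed no count. The choice among them was made after their counts were seen, and it changed no count of members: each called 25 members and 19 hepatocyte-made members lower. They called 2032 to 2073 genes, 1033 to 1123 of them higher. HNF4A lost its call (-0.50) where library sizes were summed again and TMM came before the filter, and VWF gained one in all 8 fits that were not robust.

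Of the 25 members called, 23 were called in every setting in which they were tested, the 2 changed thresholds aside, and KNG1 and F13B were not. KNG1 lost its call without siControl replicate 1, 2 or 3 or siDGUOK replicate 1, at log2 fold changes of -1.78 to -2.01, and F13B in DESeq2. No member changed direction. Shrunken DESeq2 values were over 1.5 times smaller for KNG1 (-0.87), F13B (-0.22), PROZ (-0.98), TFPI2 (1.88), PLAU (1.72) and PLAUR (1.24), all called members, and for F12 (-0.47), PLG (-0.28), F3 (0.14), PROCR (0.32), PLAT (0.70), VWF (0.10), ONECUT1 (-1.10) and JAK2 (0.22). With 1 library left out, F12 (-1.07 to -0.51), PLG (-5.19 to -1.78), CPB2 (-0.27 to -0.0077), F3 (0.10 to 0.44), PROCR (0.29 to 1.16), CEBPB (0.10 to 0.34), JAK1 (0.18 to 0.39), JAK2 (0.08 to 0.68) and STAT3 (-0.13 to -0.0134) moved over 1.5 times, none of them called in any. Among the other genes of the lists THBS1 turned, near 0: leaving out each library gave -0.0084 (without siDGUOK replicate 2) to 0.25, with no call. The median log2 fold change of all genes tested was 0.13 in DESeq2 and 0.14 with no count filter, which add genes of few counts, beside 0.02.

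With the replicate number as a block, 2077 genes and 25 members were called, 19 hepatocyte-made members lower, 7 other pathway genes (VWF added, log2 fold change 3.36, but 0.19 in the main fit without siDGUOK replicate 2), 2 plasminogen activator genes higher, and DGUOK stood at -2.58. The numbers did not pair the libraries: deviations from the group means correlated across genes by 0.02, 0.02 and -0.0022 between same-numbered libraries. Gene counts rest on 3 cultures per group of 1 cell line and 1 siRNA pool.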

Other observations

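Some contrasts within the pathway stand out for a second look, all as descriptions. TFPI2 went from 0 counts in all siControl libraries to 117, 72 and 151 counts, while its relative TFPI was lower in every siDGUOK library (log2 fold change -0.95). CPB2 (log2 fold change -0.10) was not called where 19 of 25 hepatocyte-made members were called lower, and neither was SERPINA1 among the hepatocyte markers (0.02). No difference between these genes was tested.

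VWF, PECAM1 and CDH5 were higher in siDGUOK replicate 2 than in all other libraries, at 31.4, 15.9 and 8.93 CPM, and siDGUOK replicate 1 held counts for 21057 genes. Their source was not tested.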
